A study of Mus musculus with 18 samples.

Results

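Described here are 10 genes of the ileal bile acid axis in whole-thickness mouse ileum: the uptake transporter *Slc10a2*, the binding protein *Fabp6*, the exporters *Slc51a*, *Slc51b*, *Abcc3* and *Abcc2*, the receptors *Nr1h4* and *Gpbar1*, and the FXR targets *Fgf15* and *Nr0b2*. They were chosen by name from 55487 genes in the count files. The rule used none of their values, but earlier results of these data were known when it was set. RNA-seq was performed on 18 mice, with 1 library per mouse, in 3 genotypes of 6 mice each. The IEC-*Ppara* mice carried a CAG-*Ppara*,-*EGFP* transgene at the *Col1a1* locus, in heterozygous or homozygous form, together with *Villin-CreERT2*, and the controls carried CAG-*Ppara*,-*EGFP* but lacked *Villin-CreERT2*. The *Villin* promoter limits the recombinase to the intestinal epithelium, so muscle, stroma and immune cells in the sequenced piece of gut wall carry the transgene without its Cre-driven activation, and the strain goes back to 1 clone. All mice were on a C57BL/6J background, ate chow, were 8 to 13 weeks old and received tamoxifen (100 mg/kg, intraperitoneal) on 3 days, and ileum was taken 2 weeks after the last dose. The labels give no transgene dose for the controls. Since every mouse received tamoxifen and only the IEC-*Ppara* mice carried the recombinase, an effect of activated Cre cannot be told apart from one of *Ppara* in comparisons with controls. Both IEC-*Ppara* genotypes carried the recombinase. Females numbered 3 of 6 among controls and 2 of 6 in both IEC-*Ppara* genotypes.

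In the ileum, conjugated bile acids enter enterocytes through the apical sodium-dependent transporter ASBT (*Slc10a2*), are bound in the cytosol by the ileal bile acid binding protein (*Fabp6*), and leave across the basolateral membrane through OSTα-OSTβ (*Slc51a* and *Slc51b*). Inside the cell they activate the nuclear receptor FXR (*Nr1h4*), which raises *Fgf15*, *Nr0b2*, *Fabp6*, *Slc51a* and *Slc51b*. FGF15 then travels to the liver and lowers bile acid synthesis. PPARα, the product of the transgene, is another nuclear receptor, and like FXR it binds DNA with RXR at paired copies of the hexamer AGGTCA.

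Depth and tissue were checked before the genes were compared. Libraries held 38528522 to 50376371 reads on genes, and a level of 3 CPM (the count scaled to the library total) corresponds to 115.6 reads or more. The *Ppara* level followed the labels: CPM ranged over 25.8 to 47.4 (controls), 107 to 196 (heterozygous) and 184 to 279 (homozygous). Reads of the transgene and of the mouse's own *Ppara* were not counted apart. *Fabp1* and *Pdk4*, which are known PPARα targets, also rose in both comparisons with controls, as did *Ppara* (edgeR, adjusted p from 9.0e-09 to 1.2e-04 for homozygous ileum over these 3 genes). The 8 distal small intestine markers summed to between 3337 and 4843 CPM over all libraries, and the 8 proximal markers to 161 to 278 CPM (controls), 177 to 291 CPM (heterozygous) and 250.9 to 395 CPM (homozygous). Of the 4 proximal markers tested, *Ada*, adenosine deaminase, stood at a log2 fold change of 1.25 for homozygous against control ileum (SE 0.38, edgeR adjusted p = 0.280, named after its value was seen), and the other 3 at 0.02 to 0.07. Hepatocyte markers were near 0, at 16.2 CPM or less for 6 genes. The other tissue layers were not even between genotypes: 10 smooth muscle genes summed to a median of 4159 CPM in controls, 3751 CPM in heterozygous and 5291 CPM in homozygous libraries, and the lowest values, 683 and 859 CPM, were in 1 control and 1 heterozygous library. The sum of 8 B cell markers exceeded 50 CPM in 4 libraries (2 control, 1 heterozygous and 1 homozygous). In such whole-tissue RNA, fewer cells of a type and less RNA per cell cannot be told apart.

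Sequence around RefSeq starts was read from RefSeq promoters (build GRCm38.p6), which were matched by symbol for 8 of the 10 genes, while *Fgf15* and *Abcc3* had no entry. The RefSeq start can differ from the gene start in the count files. It lay inside the gene by 64 bases for *Slc10a2*, 182 for *Slc51b*, 50 for *Gpbar1* and 116 for *Abcc2*. For *Fabp6* and *Slc51b* the last 50 bases of the window were found in no GENCODE transcript of the gene. Each promoter window of 300 bases, 250 before and 50 after the RefSeq start, was searched on both strands for the FXR arrangement AGGTCANTGACCT, an inverted repeat with a 1-base gap, and for the PPAR arrangement AGGTCANAGGTCA, a direct repeat with a 1-base gap. The motifs share their first hexamer and can overlap. The window of *Fabp6* held the closest match to the FXR arrangement among the 8, with 2 of 12 scored bases mismatched, starting at position -222 with the RefSeq start at 0. Another stretch of the *Fabp6* window, aggtgaataacct, lies nearer the start and also has 2 mismatched bases. A match that close or closer was found in 1.14% of 32534 promoters. *Slc51a* and *Slc51b* each held a best FXR match with 3 mismatches, found in 11.4% of promoters. The 250 bases before the start are shown for *Fabp6* and *Slc51a*, because these genes had the highest levels per length of the 10, with the best FXR match in capitals (for *Fabp6*, the one at -222). *Fabp6* is read from chr11:43601563-43601812 and *Slc51a* from chr16:32487880-32488129, both on the minus strand.
Fabp6: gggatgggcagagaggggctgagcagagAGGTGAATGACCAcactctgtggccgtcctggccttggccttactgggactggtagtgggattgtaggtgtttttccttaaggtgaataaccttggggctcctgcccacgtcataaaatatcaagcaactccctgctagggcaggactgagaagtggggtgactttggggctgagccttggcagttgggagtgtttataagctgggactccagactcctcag
Slc51a: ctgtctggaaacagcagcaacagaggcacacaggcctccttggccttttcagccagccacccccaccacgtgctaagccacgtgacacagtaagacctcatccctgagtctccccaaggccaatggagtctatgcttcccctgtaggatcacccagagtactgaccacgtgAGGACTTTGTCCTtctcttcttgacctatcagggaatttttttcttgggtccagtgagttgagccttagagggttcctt

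The best matches of 3 further genes are shown with 8 bases on either side and the 13-base match in capitals, because *Slc51b* encodes the partner of *Slc51a*, *Nr1h4* held the closest PPAR match of the 8 windows and *Abcc2* had the lowest p of the 10 genes between homozygous and control ileum. The *Slc51b* match is of the FXR arrangement (chr9:65422940-65422968, minus strand) and spans the gene start of the count files, at 65422955. The *Nr1h4* match is of the PPAR arrangement, on the strand opposite to the gene, with 2 mismatches (chr10:89506859-89506887), and 3.88% of promoters held a match that close. Its RefSeq window lies 26927 bases inside the gene as the count files place it. The *Abcc2* match is of the PPAR arrangement with 3 mismatches (chr19:43782244-43782272, plus strand), found in 24.7% of promoters. That match lies inside the gene as the count files place it, after its start at 43782192.
Slc51b: cattcgtgGGGTCATTCACCCtggactgg
Nr1h4: catccgtgTGGCATTTGACCTccagccag
Abcc2: agttgtcaGGATGAAAGGTCAggagactt
The best FXR matches of *Slc10a2*, *Nr0b2*, *Gpbar1*, *Nr1h4* and *Abcc2* had 4 mismatches, as 56.4% of promoters had or bettered. These matches are descriptions of letters, and binding was not measured.

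Levels were compared between genes per gene length (FPKM) in the 6 control libraries. *Fabp6* was at 8913 ± 1819 FPKM (SD, n = 6), rank 1 among protein-coding genes. *Slc51a* followed at 341 ± 49.0 FPKM and *Slc51b* at 198 ± 18.0 FPKM, so the mRNA of the α subunit was 1.72 ± 0.159 times that of its partner. *Slc10a2* was at 126 ± 27.1 FPKM and *Nr1h4* at 77.1 ± 9.13 FPKM. The ranges of neighbours in this order did not overlap down to *Nr1h4* and *Abcc2*, which was at 32.8 ± 8.07 FPKM. From there on neighbours overlapped: *Abcc2* with *Abcc3* (17.7 ± 1.75 FPKM), *Abcc3* with *Fgf15* (13.8 ± 9.00 FPKM), *Fgf15* with *Nr0b2* (1.99 ± 2.02 FPKM) and *Nr0b2* with *Gpbar1* (0.867 ± 0.399 FPKM). Of the 10 genes, the FXR targets *Fgf15* and *Nr0b2* varied most between control mice, with SDs of 65.4% and 102% of the mean in CPM.

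**Figure D1:**
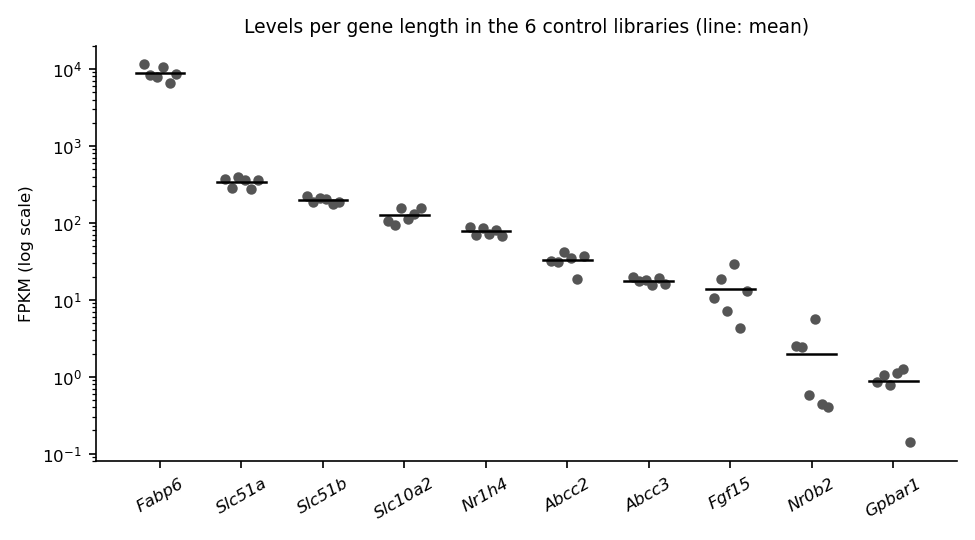
FPKM of each gene in the 6 control libraries (points, one per mouse; lines are means) on a log axis, ordered by mean. *Fabp6* lies far above the rest, at 6488 to 11459 FPKM, and *Nr0b2* and *Gpbar1* lie near or below 5.62 FPKM.

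The genotypes were compared by edgeR's quasi-likelihood test over the 12645 protein-coding genes above 3 CPM in 4 or more libraries, with p-values adjusted by the Benjamini-Hochberg method. *Fabp6*, *Slc10a2*, *Slc51a*, *Slc51b*, *Fgf15*, *Nr1h4*, *Abcc3* and *Abcc2* passed that filter. *Nr0b2* exceeded 3 CPM in 3 libraries and *Gpbar1* in 0, so their fold changes come from the fit without the filter. None of the 10 genes passed an adjusted p of 0.05 in any comparison of genotypes. For homozygous against control ileum, 0 of 10 were called, beside 0.411% of all genes tested (52 genes, 47 higher and 5 lower), and 3 of the 8 in the fit had an unadjusted p under 0.05, beside 8.06% of all genes. DESeq2 and limma also called 0 of the 10, and DESeq2 gave 3 an unadjusted p under 0.05. For heterozygous against control ileum the counts were 0 called, beside 0.293%, and 0 with an unadjusted p under 0.05 (DESeq2, 0), beside 5.29%. For homozygous against heterozygous ileum they were 0 called, beside 0.00791% (1 gene), and 4 of 8 with an unadjusted p under 0.05, beside 7.61%, and 5 of the 10 by DESeq2. The comparisons share their libraries in pairs, so they are not independent of each other. For each gene the CPM ranges of the genotypes overlapped in each comparison. Ranges did not overlap for 0.854% of genes between homozygous and control, 0.467% between heterozygous and control and 0.269% between homozygous and heterozygous libraries. Over the 8 genes in the fit, the median log2 fold change was -0.26 for homozygous against control (all genes, -0.00), 0.05 for heterozygous against control (all genes, -0.01) and -0.28 for homozygous against heterozygous ileum (all genes, -0.00). A p that misses the threshold does not show that the genotypes are alike, so intervals are given below.

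**Figure D2:**
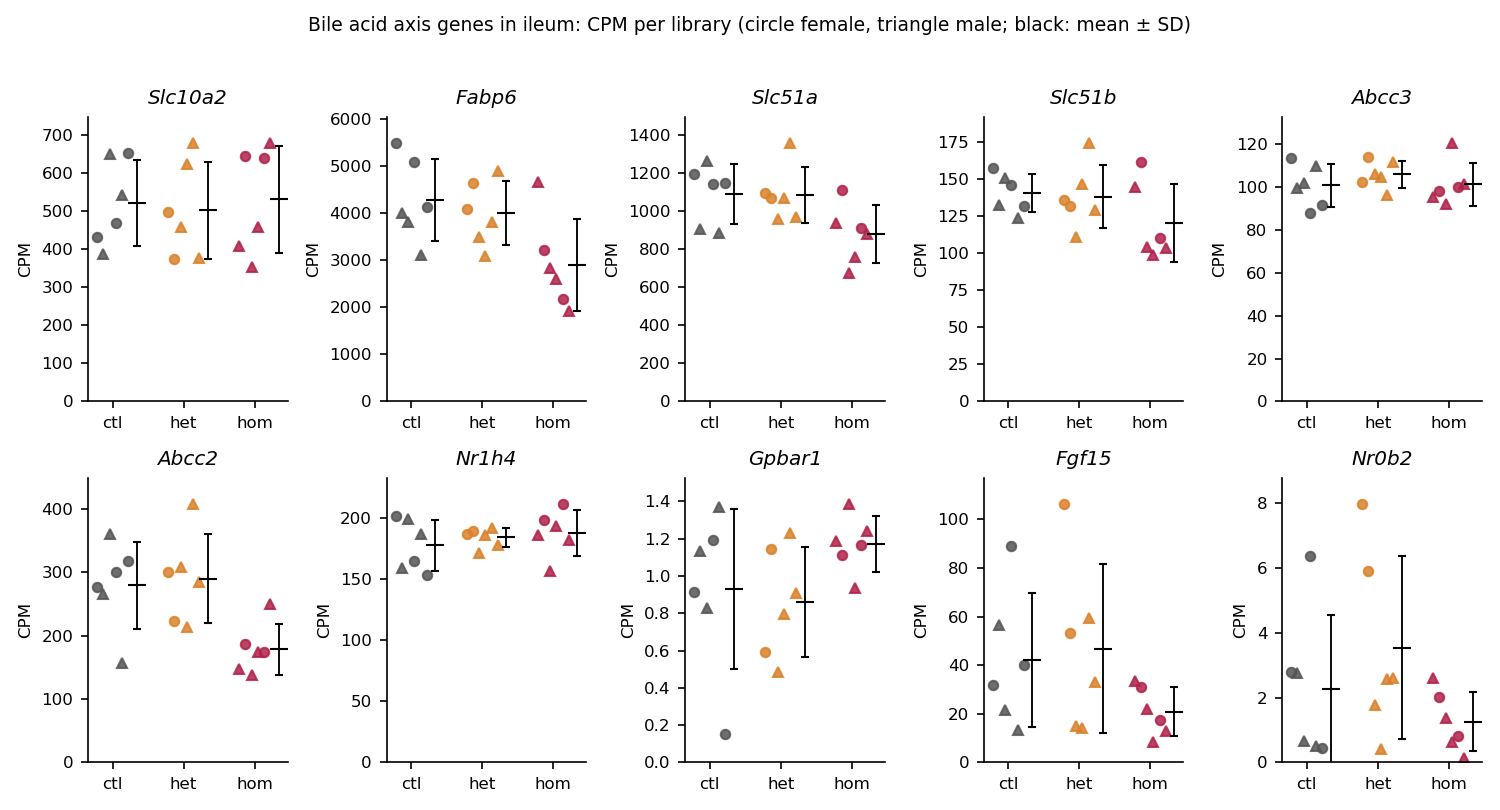
CPM of the 10 genes in each library by genotype (ctl, control; het and hom, heterozygous and homozygous IEC-*Ppara*), with circles for females, triangles for males and black marks for mean ± SD (n = 6). Homozygous means are lower for *Fabp6* (2897 against 4269 CPM), *Abcc2* (178 against 279.6 CPM) and *Fgf15* (20.9 against 42.1 CPM), and all ranges overlap.

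*Slc10a2* (chr8:5083219-5105351, minus strand), the apical importer, did not differ detectably between genotypes. Lowest, median and highest CPM were 387, 505 and 654 in controls, 373, 479 and 680.4 in heterozygous, and 355, 550.4 and 679.6 in homozygous libraries. Each genotype covered nearly the same span, with both high and low mice. The log2 fold change was 0.03 (SE 0.21, 95% interval -0.42 to 0.47) for homozygous and -0.03 (SE 0.21, interval -0.48 to 0.42) for heterozygous against control ileum, and each sign turned when single libraries were left out. On the linear scale the interval for homozygous ileum runs from 0.747-fold to 1.39-fold of controls.

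*Fabp6* (chr11:43596049-43601540, minus strand), the cytosolic carrier, was lower in homozygous than in control ileum, without passing the adjusted threshold. It had lowest, median and highest CPM of 3108, 4066 and 5489 (controls), 3076, 3940.1 and 4882 (heterozygous) and 1914, 2717 and 4653 (homozygous). Of the homozygous libraries, 4 of 6 lay below all 6 controls and 1, at 4653 CPM, lay among the highest controls. Its log2 fold change was -0.56 (SE 0.19, interval -0.95 to -0.16, edgeR adjusted p = 0.397). Without that 1 homozygous library, which is also the homozygous library with B cell markers above 50 CPM, it was -0.74 with an adjusted p of 0.059, the lowest over every alternative tried. Against heterozygous ileum it was -0.49 (SE 0.19, interval -0.88 to -0.09, adjusted p = 0.642), and for heterozygous against control ileum it was -0.07 (SE 0.19, interval -0.46 to 0.32).

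The *Slc51a* (chr16:32474504-32487879, minus strand) and *Slc51b* (chr9:65412714-65422955, minus strand) subunits of the basolateral exporter showed smaller differences in the same direction. *Slc51a* had lowest, median and highest CPM of 885, 1145 and 1261 (controls), 956, 1069 and 1359.9 (heterozygous) and 677, 895 and 1113 (homozygous). All 6 homozygous libraries were below the control median and 3 were below every control, with a log2 fold change of -0.30 (SE 0.14, interval -0.60 to -0.01, edgeR adjusted p = 0.613) against controls and -0.33 (SE 0.14, interval -0.63 to -0.03, adjusted p = 0.642) against heterozygous ileum. *Slc51b* had lowest, median and highest CPM of 124, 139 and 157 (controls), 111, 134 and 174 (heterozygous) and 98.8, 107 and 162 (homozygous). Here 4 homozygous libraries lay below every control and 1 lay above every control, and the log2 fold change was -0.21 (SE 0.14, interval -0.51 to 0.08, edgeR adjusted p = 0.726). The FPKM ratio of *Slc51a* to *Slc51b* was 1.72 ± 0.159 in control, 1.75 ± 0.107 in heterozygous and 1.64 ± 0.196 in homozygous libraries (SD, n = 6 each). In heterozygous against control ileum both log2 fold changes were near 0 (0.03 and 0.01), and both turned negative with library size in place of TMM scaling.

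Of the ABC exporters, *Abcc3* (MRP3, a basolateral exporter of conjugated anions; chr11:94343295-94392997, minus strand) varied little and *Abcc2* (MRP2, an apical exporter of conjugates; chr19:43782192-43840740, plus strand) was lower in homozygous ileum. *Abcc3* spanned 88.1 to 114 CPM (controls), 96.3 to 114 CPM (heterozygous) and 92.1 to 121 CPM (homozygous). Its log2 fold change of 0.01 (SE 0.07, interval -0.15 to 0.16) for homozygous against control ileum has an interval from 0.904-fold to 1.12-fold of controls on the linear scale. *Abcc2* had lowest, median and highest CPM of 157, 288 and 360.2 (controls), 213, 293 and 408 (heterozygous) and 137, 174 and 249.5 (homozygous). All 6 homozygous libraries were below the medians of both other groups, and 5 of 6 were below every heterozygous library, while 1 control at 157 CPM lay inside the homozygous range. Log2 fold changes were -0.65 (SE 0.21, interval -1.08 to -0.21, edgeR adjusted p = 0.340) against controls and -0.73 (SE 0.21, interval -1.17 to -0.30, adjusted p = 0.475) against heterozygous ileum. DESeq2 gave the lowest adjusted p of *Abcc2* over the alternatives, 0.097 and 0.111. *Abcc2* belongs to the genes that the study listed as differing between genotypes in these same libraries, so that listing is no independent evidence of its direction.

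No difference between genotypes passed the adjusted threshold for the receptors, and *Gpbar1* was near the limit of detection. *Nr1h4* (FXR; chr10:89454234-89533585, minus strand) had lowest, median and highest CPM of 154, 176 and 202 (controls), 171, 187 and 192 (heterozygous) and 156, 189 and 212 (homozygous). Its log2 fold changes were 0.08 for both IEC-*Ppara* groups against controls (SE 0.09 each, intervals -0.10 to 0.27 and -0.11 to 0.27). *Gpbar1* (TGR5, the membrane receptor of bile acids; chr1:74278550-74279624, plus strand) was covered by 6 to 65 reads per library, and spanned 0.151 to 1.37 CPM (controls), 0.485 to 1.23 CPM (heterozygous) and 0.937 to 1.39 CPM (homozygous). The log2 fold change was 0.35 (SE 0.34, interval -0.36 to 1.05) for homozygous against control ileum, and 0.14 without control replicate 6. Against heterozygous ileum it was 0.40 (SE 0.34, interval -0.30 to 1.11), and -0.09 with the smooth muscle level as a covariate. Exact permutation tests of mean CPM (two-sided, 6 such tests over *Gpbar1* and *Nr0b2*, unadjusted) gave p = 0.225 against controls and p = 0.0455 against heterozygous ileum, where edgeR gave an adjusted p of 0.713. *Gpbar1* followed the smooth muscle markers across libraries, as described below.

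The FXR targets *Fgf15* and *Nr0b2* differed several-fold among mice of the same genotype. *Fgf15* (the enterokine that signals to the liver; chr7:144896531-144900953, plus strand) had lowest, median and highest CPM of 13.3, 36.0 and 89.2 (controls), 14.4, 43.1 and 106 (heterozygous) and 8.53, 19.6 and 33.6 (homozygous). All 6 homozygous libraries were below the control median, but only 2 of 6 were below every control, since 1 control was at 13.3 CPM. The log2 fold change was -0.99 (SE 0.51, interval -2.05 to 0.08, edgeR adjusted p = 0.644) against controls and -1.20 (SE 0.51, interval -2.27 to -0.14, adjusted p = 0.642) against heterozygous ileum. *Nr0b2* (SHP, a repressor of transcription; chr4:133553376-133556536, plus strand) was covered by 7 to 378 reads, and had lowest, median and highest CPM of 0.454, 1.71 and 6.36 (controls), 0.423, 2.59 and 7.98 (heterozygous) and 0.150, 1.09 and 2.61 (homozygous). The highest homozygous library stood near the heterozygous median and above the control median. The log2 fold change was -0.80 (SE 0.71, interval -2.27 to 0.68) against controls and -1.52 (SE 0.71, interval -3.00 to -0.03, edgeR adjusted p = 0.675) against heterozygous ileum, and exact permutation tests of mean CPM gave p = 0.390 and p = 0.0823. For heterozygous against control ileum both log2 fold changes were above 0. *Fgf15* stood at 0.22 (SE 0.50, interval -0.83 to 1.26) and *Nr0b2* at 0.72 (SE 0.69, interval -0.73 to 2.17). Without control replicate 4, the control library highest in both targets, *Nr0b2* stood at -0.19 and *Fgf15* at -0.65 (edgeR adjusted p = 0.651) for homozygous against control ileum, and without heterozygous replicate 1 *Fgf15* stood at -0.77 for homozygous against heterozygous ileum. With sex as a covariate *Nr0b2* stood at -0.42 and *Fgf15* at -0.78 for homozygous against control ileum. For homozygous ileum the intervals of both genes run from a several-fold lower level to almost none or a higher one.

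**Figure D3:**
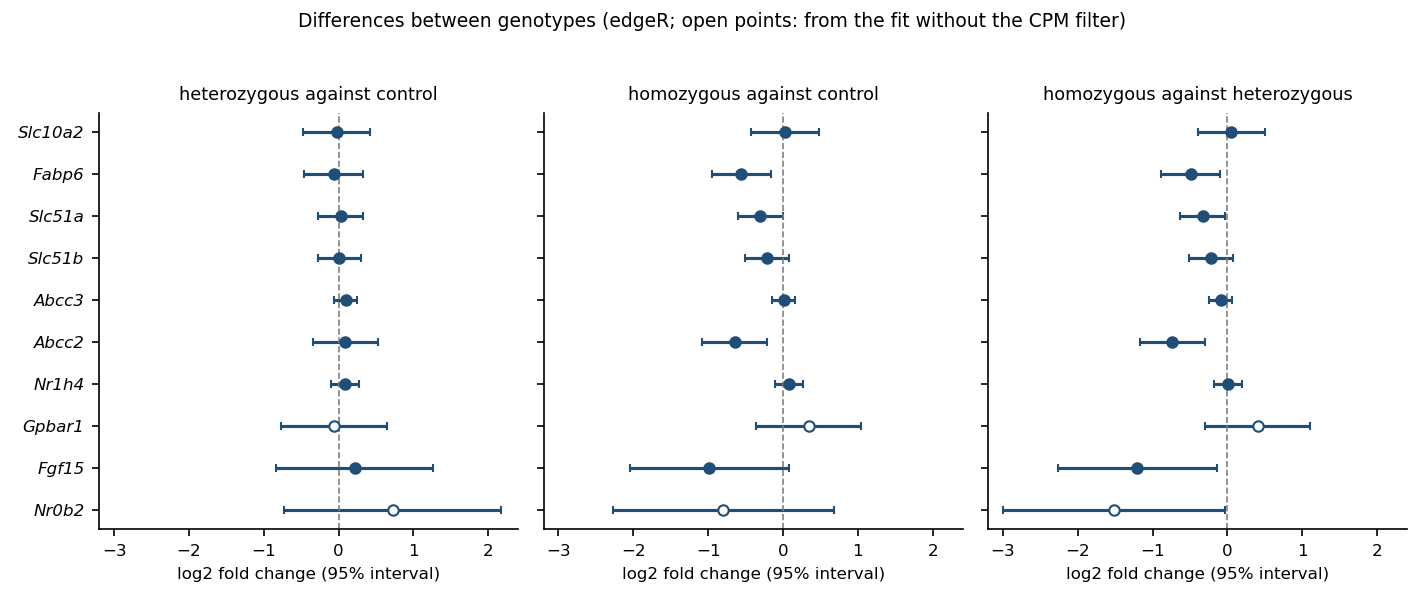
Log2 fold change of each gene with its 95% interval in the 3 comparisons of genotypes (edgeR; open points come from the fit without the CPM filter). Intervals of *Fabp6*, *Abcc2* and *Slc51a* lie below 0 for homozygous against control ileum before adjustment, at -0.95 to -0.16, -1.08 to -0.21 and -0.60 to -0.01. Those of *Fgf15* and *Nr0b2* are the widest.

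Males and females were compared with genotype in the fit, since the sexes were not evenly spread over the genotypes. None of the 10 genes was called (edgeR, beside 0.0554% of all genes, 7 genes), and among the 8 in the fit 1 had an unadjusted p under 0.05, beside 3.39% of all genes. DESeq2 also called 0 and gave 2 of the 10 an unadjusted p under 0.05. *Fgf15* was at 17.4 over a median of 40.0 to 106 CPM in 7 females and at 8.53 over 21.6 to 59.3 CPM in 11 males, with 5 males below every female. Its log2 fold change, male against female, was -0.87 (SE 0.38, interval -1.67 to -0.08, edgeR adjusted p = 0.998). *Nr0b2* was at 0.454 over 2.80 to 7.98 CPM in females and at 0.150 over 1.36 to 2.76 CPM in males, all 11 males lying below the female median, with a log2 fold change of -1.22 (SE 0.53, interval -2.34 to -0.10, edgeR adjusted p = 0.976). Within genotypes, mean *Fgf15* was 53.8 CPM in 3 female and 30.5 CPM in 3 male controls, 79.8 CPM in 2 female and 30.4 CPM in 4 male heterozygous mice, and 24.3 CPM in 2 female and 19.2 CPM in 4 male homozygous mice. In the 14 libraries with low B cell markers *Fgf15* stood at -1.44, and with a replicate block *Nr0b2* stood at -0.69. The other 8 genes had log2 differences between -0.18 and 0.21.

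**Figure D4:**
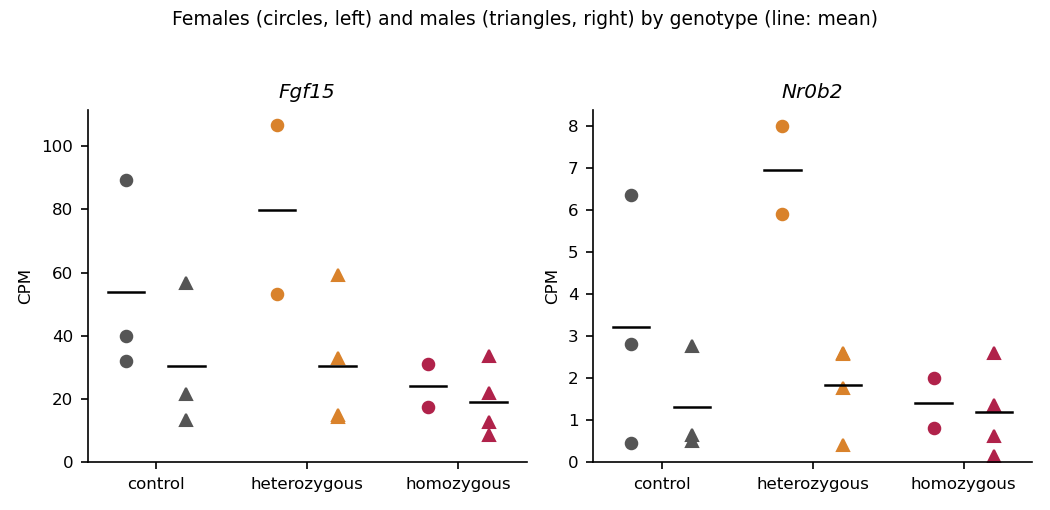
CPM of *Fgf15* and *Nr0b2* in females (circles) and males (triangles) of each genotype, with lines at the means. The 2 heterozygous females, at 53.2 and 106 CPM of *Fgf15*, carry the widest gap between the sexes.

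Across the 18 libraries several of the genes varied together. Of 45 pairs, tested on log2(CPM + 0.1) with 100000 permutations, the closest was *Slc51a* with *Slc51b*, the partner subunits (Pearson's r = 0.853, permutation p = 3e-05, adjusted p = 0.00135; Spearman's rho = 0.835, permutation p = 6e-05, adjusted p = 0.0027). It held in each genotype (r = 0.813, 0.917 and 0.815 in control, heterozygous and homozygous libraries, n = 6 each), and leaving out the 2 libraries farthest from the *Slc51a* median gave r = 0.804. The next was *Fgf15* with *Nr0b2* (r = 0.813, permutation p = 7e-05, adjusted p = 0.0016; rho = 0.796, permutation p = 0.00016, adjusted p = 0.0036), with r = 0.774, 0.861 and 0.796 within genotypes, 0.757 in females and 0.783 in males, and 0.778 without the 2 farthest libraries. *Fabp6* followed both of these FXR targets, *Nr0b2* with r = 0.719 (rho = 0.725, adjusted permutation p = 0.0081 and 0.0089) and *Fgf15* with r = 0.692 (rho = 0.723, adjusted permutation p = 0.0126 and 0.0089). Within genotypes these were 0.741, 0.738 and 0.881 for *Nr0b2* and 0.671, 0.574 and 0.716 for *Fgf15*, and leaving out the 2 libraries farthest from the *Fabp6* median gave 0.627 and 0.676. *Slc51a* with *Abcc2* had r = 0.744 (rho = 0.748, adjusted permutation p = 0.0071 and 0.0086), which was 0.806, 0.527 and 0.378 within genotypes and 0.591 without the 2 farthest libraries. *Fabp6* with *Slc51b* passed by r (0.637, adjusted permutation p = 0.0335) but not by rho (0.515, adjusted permutation p = 0.139), and r was -0.147 in heterozygous libraries. No pair with *Nr1h4*, the receptor itself, passed an adjusted p of 0.05, and its highest correlation was with *Abcc3* (r = 0.487, rho = 0.443, adjusted permutation p = 0.173 and 0.234). The genes share their libraries and depth, and all 45 pairs were computed.

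**Figure D5:**
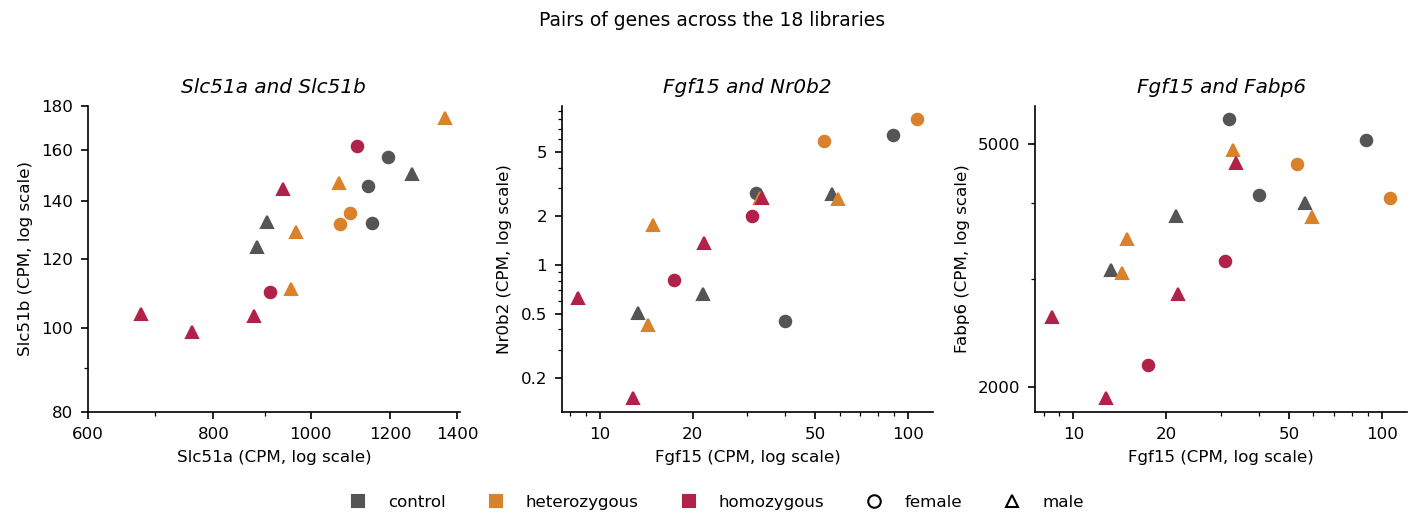
CPM of 3 pairs of genes across the 18 libraries, both axes on a log scale, colours for genotype, circles for females and triangles for males. *Nr0b2* is higher where *Fgf15* is higher (r = 0.813) in libraries of each genotype, and *Slc51b* with *Slc51a* (r = 0.853).

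Marker levels of the epithelium and of other tissue layers moved with part of these genes. Of 100 relations between the 10 genes and 10 marker lists (log2 of the summed CPM + 1), the closest was *Slc10a2* with 10 enterocyte markers (r = 0.917 and rho = 0.915, permutation p = 1e-05 for each, the smallest that 100000 permutations give, adjusted p = 0.001), which was 0.945, 0.964 and 0.967 within genotypes and 0.920 without the 2 farthest libraries. That sum is weighted to *Anpep*, at a median of 10327.5 CPM (named after its value was seen). No other of the 10 genes passed an adjusted permutation p of 0.05 with the enterocyte markers. Their r ran from -0.514 (*Nr0b2*) to 0.505 (*Slc51a*). *Gpbar1* followed the smooth muscle markers (r = 0.831, permutation p = 3.2e-04, adjusted p = 0.0153; rho = 0.641, adjusted permutation p = 0.0709), but r was 0.391 without the 2 libraries of lowest smooth muscle, so that relation rests on those libraries. *Abcc2* ran against the fibroblast markers (r = -0.693, adjusted permutation p = 0.024; rho = -0.713, adjusted permutation p = 0.0242), with -0.490, -0.854 and -0.647 within genotypes and -0.497 without the 2 farthest libraries. *Abcc2* also ran against the smooth muscle markers (r = -0.607, adjusted permutation p = 0.0666; rho = -0.746, adjusted permutation p = 0.0165), with -0.527, -0.305 and -0.711 within genotypes and -0.742 without the 2 farthest libraries. *Abcc2* ran against the 7 enteric neuron markers too (r = -0.660, adjusted permutation p = 0.0273; rho = -0.746, adjusted permutation p = 0.0165), with -0.458, -0.413 and -0.622 within genotypes and -0.650 without the 2 farthest libraries. *Gpbar1* followed the enteric neuron markers (r = 0.813, adjusted permutation p = 0.0153, rho = 0.635, adjusted permutation p = 0.0709), with r = 0.523 without the 2 farthest libraries. *Slc51a* ran against the fibroblast markers as well (r = -0.715, adjusted permutation p = 0.0235; rho = -0.591, adjusted permutation p = 0.114), with -0.435, -0.836 and -0.788 within genotypes and -0.469 without the 2 farthest libraries. By rank alone *Slc51a* ran against the enteric neuron markers (rho = -0.754, adjusted permutation p = 0.0165, r = -0.631, adjusted permutation p = 0.0666) and the smooth muscle markers (rho = -0.682, adjusted permutation p = 0.0428, r = -0.467, adjusted permutation p = 0.280). Within control, heterozygous and homozygous libraries r was -0.464, 0.011 and -0.870 for the enteric neuron markers. For the smooth muscle markers it was -0.482, 0.212 and -0.749. Without the 2 farthest libraries r was -0.574 for the enteric neuron and -0.820 for the smooth muscle markers.
In homozygous against control ileum all 10 smooth muscle and all 8 fibroblast genes had a higher fitted level, with medians of 0.59 and 0.35 on the log2 scale, and edgeR called 0 of either list, beside 0.411% of all genes (0 of 10 and 1 of 8 with an unadjusted p under 0.05, beside 8.06%). All 7 enteric neuron genes also had a higher fitted level, with a median of 0.59, and 1 of them rose past the adjusted threshold: *Ret*, a receptor tyrosine kinase, at 0.90 (SE 0.12, edgeR adjusted p = 4.65e-04), named after its value was seen, while 2 of the 7 had an unadjusted p under 0.05. All 8 B cell genes had a lower fitted level, with a median of -3.11, and 0 were called, while 8 of 8 had an unadjusted p under 0.05. These counts stand beside the same 0.411% and 8.06% of all genes. With the smooth muscle level as a covariate, an alternative added after the data were seen, the log2 fold change of homozygous against control ileum was -0.47 for *Abcc2*, -0.55 for *Fabp6*, -0.22 for *Slc51a*, -1.16 for *Fgf15*, -1.11 for *Nr0b2* and 0.07 for *Gpbar1*, with edgeR adjusted p-values of 0.568 or more over the 10 genes. The difference of *Fabp6* was as large with this covariate as without it to within 0.01, and those of *Fgf15* and *Nr0b2* were larger. Those of *Abcc2* (-0.65 without it), *Slc51a* (-0.30) and *Gpbar1* (0.35) were smaller. In the 14 libraries with B cell markers at or under 50 CPM, also compared after the data were seen, *Fabp6* stood at -0.80 (edgeR adjusted p = 0.178), *Abcc2* at -0.51 (adjusted p = 0.888), *Fgf15* at -1.23 (adjusted p = 0.902) and *Nr0b2* at -1.30 (adjusted p = 0.842). The part of the fibroblast and enteric neuron levels in these differences was not tested.

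Genes with the most similar pattern over the 18 libraries were named by Pearson's r of log2 CPM across all genes tested, as a description with no test. *Fabp6* was closest to *Leap2* (r = 0.887), *Rnf208* (0.862) and *Acp6* (0.851). *Fgf15* was closest to *2700097O09Rik* (0.858), *Rnf208* (0.764) and *D130043K22Rik* (0.726). *Slc10a2* was closest to *Sqle* (0.957), an enzyme of cholesterol synthesis, *Slc13a1* (0.955), a sulfate transporter, and *Cdc42se2* (0.946). *Slc51a* was closest to *Lpcat4* (0.951), *Tcn2* (0.944) and *Slc3a2* (0.938), *Slc51b* to *Sdhb* (0.910), *Amdhd2* (0.905) and *Sri* (0.893), and *Abcc2* to *Ccser1* (0.909), *Mme* (0.878) and *Nat8f4* (0.876). *Nr1h4* (*Arhgef26*, 0.794; *Nrg1*, 0.786; *Tpsg1*, 0.764) and *Abcc3* (*Cfb*, 0.772; *Tmem94*, 0.748; *Rassf1*, 0.738) had a first match below that of each of the others.

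The rest of the pathway was read from lists of named genes. Of 14 other nuclear receptors and cofactors of bile acid sensing, 13 were tested and 0 were called between homozygous and control, heterozygous and control, or homozygous and heterozygous ileum by edgeR, beside 0.411%, 0.293% and 0.00791% of all genes. An unadjusted p under 0.05 was found for 0, 2 and 3 of the 13, beside 8.06%, 5.29% and 7.61% of all genes, and these shares of all genes apply to the next 2 lists as well. Of these, the most abundant were *Hnf4a*, which drives enterocyte genes, with 1319.8 ± 149 CPM (controls) and 1292 ± 138 CPM (homozygous; SD, n = 6), *Vdr*, the vitamin D receptor, at 444 ± 35.9 and 472 ± 27.5 CPM, and *Ncor1*, a corepressor, at 369 ± 11.6 and 389.6 ± 23.4 CPM. Of 22 other genes of bile acid and organic anion transport, binding and metabolism, 17 were tested and 0 were called (3, 1 and 5 of 17 with an unadjusted p under 0.05). The most abundant were *Abcb1a*, an apical drug exporter (controls 848 ± 207, homozygous 836 ± 319 CPM), *Slc15a1*, the peptide importer (409 ± 78.6 and 403 ± 97.9 CPM), and *Abcg2*, another apical exporter (281 ± 25.9 and 292 ± 19.3 CPM). The 3 of this list with an unadjusted p under 0.05 for homozygous against control ileum, named after their values were seen, were cytochromes that hydroxylate bile acids and drugs: *Cyp3a11* at -0.72 (log2, SE 0.33), *Cyp3a13* at -0.40 (SE 0.15) and *Cyp3a25* at -0.43 (SE 0.15), with edgeR adjusted p-values of 0.445 to 0.611. *Cyp3a11* is also in the study's own list of differing genes from these libraries.

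Of 14 other genes listed as FXR targets, 10 were tested and 0 were called in the same comparisons (4, 1 and 3 of 10 with an unadjusted p under 0.05, beside 8.06%, 5.29% and 7.61% of all genes). Whether FXR regulates the listed genes in this ileum was not tested. For homozygous against control ileum 8 of the 10 had a lower fitted level, with a median log2 fold change of -0.21, beside -0.00 over all genes. The most abundant were *Cyp4f14* (controls 915 ± 107, homozygous 884 ± 57.2 CPM), *Ang4*, an antimicrobial ribonuclease (450.2 ± 60.2 and 419 ± 97.2 CPM), and *Abcg8*, a subunit of the apical sterol exporter (251 ± 39.0 and 213 ± 26.9 CPM). The 4 with an unadjusted p under 0.05, named after their values were seen, were *Car12*, a carbonic anhydrase, at -0.51 (log2, SE 0.16, edgeR adjusted p = 0.322), *Abcg5*, the partner of *Abcg8*, at -0.29 (SE 0.11, adjusted p = 0.511), *Sdc1*, a heparan sulfate proteoglycan, at -0.18 (SE 0.08, adjusted p = 0.602) and *Ugt1a1*, which conjugates bilirubin, at 0.41 (SE 0.12, adjusted p = 0.241). *Ugt1a1* was also higher in heterozygous ileum, at 0.44 (SE 0.12, adjusted p = 0.276), without passing the adjusted threshold.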

How the data were processed

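Ileal RNA was isolated from the most distal piece of small intestine, and poly-A selected libraries were sequenced. The authors aligned reads with STAR to the Ensembl release 101 assembly (GRCm38) and counted uniquely aligned, unambiguous reads with featureCounts; the deposited counts are not normalized. The deposited CPM values are these counts scaled to library totals, the deposited FPKM also to gene length, and the deposited log2 CPM used a prior count of unstated size. Whether counting used strand is not given in the sources used here, and the read depth of 38528522 to 50376371 counts per library limits genes near 1 CPM.

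Protein-coding genes over 3 CPM in 4 or more libraries were taken (the study's stated threshold, applied here to the deposited counts, which leaves 12645 genes and need not leave the study's own set) and compared with edgeR 4.0.16 (glmQLFit, glmQLFTest, TMM, 18 libraries in 1 fit, no covariate; genotype as covariate for sex) in R 4.3.3, with Benjamini-Hochberg adjustment over all genes tested at 0.05 and 95% intervals from the fit's standard errors. The pipeline was tested on simulated data. Mice are the replicates. Alternatives were DESeq2 1.42.0, limma 3.58.1 trend on the deposited log2 CPM, other scalings, no filter, all biotypes, 12 libraries, sex as covariate, a replicate block and leaving out each library; a smooth muscle covariate and leaving out libraries with B cell markers over 50 CPM were added after the data were seen. The 10 genes and the lists were chosen with earlier results of these data known. Named are the 10 genes, the check genes (1 is not reported here), called list genes or else the 3 most abundant, and the 3 genes most similar to each of the 8 genes kept; others are marked as named after their values were seen.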

Additional observations from a re-analysis of the deposited data

Results flagged for a closer look

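In 30 groups (10 genes in 3 genotypes of 6 libraries), the highest or lowest library was compared with its nearest neighbour by Dixon's criterion, which chance exceeds in about 1 of 20 groups, and 2 groups exceeded it. *Slc51a* stood at 1359.85 CPM in heterozygous replicate 5, above the next library at 1095 CPM. *Abcc3* stood at 120.8 CPM in homozygous replicate 4, above the next library at 101.5 CPM. Neither gene was called with or without these libraries.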

How the results depend on the processing

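None of the 10 genes was called in any of 1150 refits over genes, comparisons and alternatives, and the lowest adjusted p was 0.059. Genes called between homozygous and control ileum numbered 52, and 136 with DESeq2 or 30 in the 14 libraries with low B cell markers. Between heterozygous and control ileum they numbered 37, and 82 with DESeq2, 23 in the 12 libraries compared, 22 with a replicate block and 15 in the libraries with low B cell markers. Between homozygous and heterozygous ileum 1 was called, and 9 with DESeq2, 0 with DESeq2 size factors, no filter, all biotypes, the 12 libraries compared, sex or smooth muscle as a covariate, a replicate block or the libraries with low B cell markers, and 0 to 2 when each library was left out. Fewer libraries were fitted in part of these, and the cause was otherwise not tested. The replicate numbers do not pair the mice (correlations of same-numbered libraries ran from -0.61 to 0.64), and the replicate block called 49 genes for homozygous against control ileum, 22 for heterozygous against control and 7 for male against female. Signs that turned belonged to differences of at most 0.22 in size, except *Gpbar1* for homozygous against heterozygous ileum (0.40). For heterozygous against control ileum, the log2 fold change of *Slc51a* was -0.0012 with limma and -0.0051 with library size as scaling, *Slc51b* -0.032 and -0.024, *Gpbar1* 0.068 with limma and 0.16 with the smooth muscle covariate, and *Slc10a2* 0.047 in the libraries with low B cell markers. *Nr1h4* was at -0.0044 without the filter and *Gpbar1* at -0.087 with the smooth muscle covariate for homozygous against heterozygous ileum, and *Abcc2* at 0.016 with that covariate for male against female. Leaving out each library gave, for homozygous against control ileum, *Slc10a2* -0.061 to 0.13 and *Abcc3* -0.042 to 0.049. For heterozygous against control it gave *Fabp6* -0.15 to 0.021, *Slc10a2* -0.15 to 0.080, *Slc51a* -0.061 to 0.082, *Slc51b* -0.079 to 0.070, *Fgf15* -0.21 to 0.55, *Gpbar1* -0.27 to 0.081 and *Abcc2* -0.052 to 0.18. For homozygous against heterozygous it gave *Slc10a2* -0.034 to 0.18 and *Nr1h4* -0.034 to 0.062, and for male against female *Slc10a2* -0.16 to 0.017, *Abcc3* -0.019 to 0.051 and *Abcc2* -0.11 to 0.076. The remaining fold changes of the 10 genes kept their direction, though many small ones moved by over 1.5 times. Of those above 0.3 in size, these were *Nr0b2* at -1.14 to -0.19, *Gpbar1* at 0.14 to 0.49 and *Fgf15* at -1.17 to -0.65 for homozygous against control, *Nr0b2* at 0.30 to 1.33 for heterozygous against control, and *Fgf15* at -1.39 to -0.77 for homozygous against heterozygous ileum, when each library was left out. Control replicate 4 (*Nr0b2*, *Fgf15*), control replicate 6 (*Gpbar1*) and heterozygous replicate 1 (*Nr0b2*, *Fgf15*) gave the moves. Under the other alternatives such moves were, for homozygous against control, *Nr0b2* at -0.42 with sex as a covariate and -1.30 in the libraries with low B cell markers, and *Gpbar1* at 0.58 with limma and 0.07 with the smooth muscle covariate. In the libraries with low B cell markers *Nr0b2* was at 0.37 for heterozygous against control and *Fgf15* at -1.44 for male against female, where *Nr0b2* was at -0.69 with a replicate block. Depth limits *Gpbar1* and *Nr0b2*, which rest on as few as 6 and 7 reads.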
